A study of Homo sapiens with 3 samples.

Results

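The 158 genes described here are well-expressed ZNF zinc finger genes of NCI-H23, an established human lung adenocarcinoma cell line. They are the genes whose symbol is ZNF followed by digits alone and whose raw count averaged 200 or more over the 3 libraries, out of 477 genes so named and 50868 genes in all. Of 164 genes at or above that level, 6 were left out by name (ZNF10, ZNF26, ZNF84, ZNF140, ZNF605 and ZNF891). The members were selected on measured counts, so their levels are a description. The average included the knockdown libraries, so a gene with few counts in the control could enter through its counts after knockdown. That was the case for 24 members, which had fewer than 200 counts in the control.

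The cells had received a control siRNA (1 library) or an siRNA against USP16 (2 libraries, numbered 1 and 2 as in their labels) and were profiled with a kit for mRNA libraries. USP16 is a ubiquitin protease that acts on histone H2A. All 3 libraries came from this 1 cell line, and no further treatment, time or genotype is named in the labels. Whether libraries 1 and 2 are separate siRNAs or separate cultures is not stated. The residual scatter of a gene comes from the difference between these 2 libraries, part of which may be technical. The single control adds none and is taken to vary as they do, and the tests also share spread across genes. Each p-value therefore speaks for these 3 samples alone.

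C2H2 zinc finger proteins read DNA through tandem fingers, each a short fold in which a pair of cysteines and a pair of histidines hold a zinc ion. Many carry a KRAB domain near the amino terminus, which recruits the corepressor TRIM28 (KAP1) and, through it, the histone methyltransferase SETDB1 and heterochromatin proteins. These KRAB zinc finger proteins are best known for silencing retroelements, and many of their genes lie in clusters on chromosome 19. Other members lack KRAB and act as activators, as partners of chromatin complexes or in RNA metabolism.

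All 158 members are protein-coding genes in GENCODE release 29. A KRAB-like motif was found in 66 of them. The number of C2H2 finger matches in the encoded protein ran from 0 to 33 with a median of 9, and chromosome 19 held 38 members, more than chromosome 7 with 18 or chromosome 16 with 16. The unit that gives the family its name can be read in the coding strand of the first finger of the 3 members that were at least 2-fold above the control in both knockdown libraries. The stretches are read 5′ to 3′ from hg38, and capitals mark the 2 cysteine and 2 histidine codons. They lie at chr12:48343432-48343494, chr11:3360210-3360272 and chr17:5183810-5183872, all on the minus strand.
ZNF641: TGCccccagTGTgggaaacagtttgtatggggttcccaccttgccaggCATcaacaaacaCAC
ZNF195: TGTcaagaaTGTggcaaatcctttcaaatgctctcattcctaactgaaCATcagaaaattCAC
ZNF594: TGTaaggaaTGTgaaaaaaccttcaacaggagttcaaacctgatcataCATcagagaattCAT
Each stretch is 63 bases and encodes 21 residues. ZNF641 had 5 such fingers, ZNF195 had 9 and ZNF594 had 21. KRAB-like motifs were found in ZNF641 and ZNF195 and not in ZNF594.

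The promoters of 135 members were matched in a RefSeq table on GRCh38.p14, each running from 250 bases before to 50 bases after the gene start. They were rich in CpG, with a median of 25 CpG dinucleotides against 14 over all 27305 promoters of that length. The ETS-factor core CCGGAAG was present on either strand in 55 of the 135 (40.7%), against 10.7% of all promoters. The CREB element TGACGTCA, a palindrome, was in 7.41% against 1.98%, the SP and KLF box GGGCGG in 62.2% against 44.6%, the YY1 element AAGATGGCG in 4.44% against 1.85% and the NRF1 element GCATGCGC in 5.19% against 3.27%. The CCAAT box bound by NF-Y was found in 34.8% of member promoters and 35.7% of all. It was in 47.3% of 55 members with a KRAB-like motif and in 26.2% of 80 without. The 27305 promoters were not limited to expressed genes or matched for CpG, so these shares do not set ZNF promoters apart from others of like CpG content. These are matches of letters in a window and not sites of binding, and the motifs were picked after the changes of the members were known. No motif contains another, on either strand.

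The promoters of 6 members are shown to set genes of unlike behaviour side by side: those of ZNF641, ZNF195 and ZNF594, which were 2-fold or more above the control in both knockdown libraries, and those of ZNF264, ZNF672 and ZNF362, which had the lowest mean log2 changes of the members named here. Capitals mark matches to CCGGAAG, AAGATGGCG, GCATGCGC, TGACGTCA or CCAAT on either strand. In the order printed they are chr12:48350870-48351169 (minus), chr11:3379097-3379396 (minus), chr17:5191819-5192118 (minus), chr19:57191250-57191549 (plus), chr1:248837974-248838273 (plus) and chr1:33256242-33256541 (plus), each written 5′ to 3′ on the strand of its gene.
ZNF641: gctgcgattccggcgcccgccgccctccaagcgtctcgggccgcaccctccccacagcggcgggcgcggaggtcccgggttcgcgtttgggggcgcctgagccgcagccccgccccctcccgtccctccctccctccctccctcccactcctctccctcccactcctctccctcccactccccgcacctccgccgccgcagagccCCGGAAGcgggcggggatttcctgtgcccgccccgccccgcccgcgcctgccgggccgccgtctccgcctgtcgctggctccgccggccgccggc
ZNF195: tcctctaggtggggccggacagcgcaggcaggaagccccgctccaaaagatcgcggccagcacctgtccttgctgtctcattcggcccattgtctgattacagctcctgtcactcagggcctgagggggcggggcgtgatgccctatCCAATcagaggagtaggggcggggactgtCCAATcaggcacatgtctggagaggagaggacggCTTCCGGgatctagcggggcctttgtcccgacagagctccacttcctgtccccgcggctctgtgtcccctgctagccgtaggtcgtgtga
ZNF594: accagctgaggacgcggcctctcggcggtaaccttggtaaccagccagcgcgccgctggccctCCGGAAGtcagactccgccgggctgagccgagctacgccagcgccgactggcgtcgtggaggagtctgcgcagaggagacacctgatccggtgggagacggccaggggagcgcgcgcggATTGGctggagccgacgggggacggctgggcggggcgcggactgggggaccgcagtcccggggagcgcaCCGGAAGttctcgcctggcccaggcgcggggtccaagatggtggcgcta
ZNF264: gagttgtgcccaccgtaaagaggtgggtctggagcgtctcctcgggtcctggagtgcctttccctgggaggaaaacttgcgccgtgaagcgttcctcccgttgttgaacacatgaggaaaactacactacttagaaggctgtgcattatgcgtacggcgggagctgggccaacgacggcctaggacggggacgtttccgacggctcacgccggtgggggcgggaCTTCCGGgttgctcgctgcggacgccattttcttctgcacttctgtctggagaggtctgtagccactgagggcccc
ZNF672: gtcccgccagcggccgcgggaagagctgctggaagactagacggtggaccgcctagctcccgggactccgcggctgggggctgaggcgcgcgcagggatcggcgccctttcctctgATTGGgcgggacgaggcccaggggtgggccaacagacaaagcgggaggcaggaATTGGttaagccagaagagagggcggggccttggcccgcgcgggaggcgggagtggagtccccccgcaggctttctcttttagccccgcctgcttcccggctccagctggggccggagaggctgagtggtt
ZNF362: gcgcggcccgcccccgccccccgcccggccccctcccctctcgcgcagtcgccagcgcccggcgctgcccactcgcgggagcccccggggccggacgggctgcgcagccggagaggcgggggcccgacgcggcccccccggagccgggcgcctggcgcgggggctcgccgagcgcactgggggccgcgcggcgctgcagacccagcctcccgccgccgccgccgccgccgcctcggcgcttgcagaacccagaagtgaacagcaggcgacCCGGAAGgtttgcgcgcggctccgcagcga
The ETS core was present in 5 of these 6 promoters, in genes that were above the control and in genes that were below it. Over all matched members it was in 45.8% of 48 promoters of genes above the control in both knockdown libraries and in 40.9% of 44 of genes below it in both. In the same order the CCAAT box was in 22 of 48 and 11 of 44, GGGCGG in 64.6% and 70.5%, TGACGTCA in 2.08% and 6.82%, GCATGCGC in 4.17% and 6.82% and AAGATGGCG in 2.08% and 2.27%. These shares were not tested.

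The libraries held 14007161, 13956382 and 15071179 counts in the order control, knockdown library 1 and knockdown library 2, an order kept for every set of 3 counts that follows. Paired log2 values, or paired medians for a group of genes, are changes from the control in library 1 and then in library 2. USP16 had 632, 109 and 245 counts, 83.8% and 66.8% lower after scaling (edgeR quasi-likelihood test, Benjamini-Hochberg adjusted p = 0.561). The 5 lung epithelial markers were absent or low and summed to 19 to 26 counts. SFTPB, SFTPC and SCGB1A1 were at 0 in every library, while NKX2-1 had 6, 4 and 10 counts and NAPSA 20, 20 and 9. The 5 general epithelial markers summed to 5359, 3359 and 5621 counts, most of them from KRT8 and KRT18, while EPCAM had 38, 161 and 232 and CDH1 142, 39 and 93. The 3 mesenchymal markers summed to 20306, 19541 and 8281, nearly all from VIM, and so moved between the knockdown libraries. The 4 fibroblast markers summed to 802 to 957 counts, most of them from COL1A1 (918, 881 and 700). COL3A1 had 19, 67 and 94, COL1A2 5, 7 and 6 and DCN 0, 2 and 2. The 3 endothelial markers summed to 6 to 12, with PECAM1 and CDH5 at 0 in the control. The 4 leukocyte markers summed to 78 to 157, with CD3E at 0 in every library and PTPRC at 0 to 1. The part of these marker differences in the results below was not tested. In RNA from a whole culture, fewer cells with a transcript and less of it per cell cannot be told apart.

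Changes in ZNF genes were mostly under 2-fold and often unequal between the knockdown libraries. The log2 change lay within 0.5 of 0 in both libraries for 73 of 158 members (46.2%), against 49.7% of the 9339 tested genes that averaged 200 counts or more (called comparably expressed genes below). The mean of both changes lay within 0.5 of 0 for 104, of which 31 were 0.5 or more from the control in at least 1 library. These means had quartiles at -0.28 and 0.33 and extremes at -1.78 (ZNF264) and 1.63 (ZNF641). The median of these means was 0.03, against -0.07 for comparably expressed genes and -0.02 for all 17287 genes tested. No member passed an adjusted p of 0.05 in edgeR's quasi-likelihood test, where the smallest adjusted p was 0.863, and none passed in DESeq2. At an unadjusted p under 0.05, 6 members were found by edgeR (ZNF641, ZNF195, ZNF133, ZNF229, ZNF558 and ZNF594). DESeq2 found 6 members and 514 of the 17287 genes tested at that level. Apart from ZNF558 (468 counts), those found by edgeR had 95 to 171 counts in the control and entered through their knockdown counts. Across all genes tested edgeR called 0.0174% after adjustment and 4.88% at an unadjusted p under 0.05, so the share of members was near that of all genes.

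ZNF641 was the member with the highest mean log2 change. It lies on chromosome 12 at positions 48337180 to 48351414 (hg38, minus strand) and had 95, 366 and 301 counts. Its scaled level was 7.14 CPM, the count after scaling each library to the same total (exact Poisson 95% interval 5.77 to 8.72), in the control, 25.8 (23.2 to 28.6) in knockdown library 1 and 19.4 (17.2 to 21.7) in library 2. Both knockdown libraries were above the control, with log2 changes of 1.84 and 1.42 and a mean of 1.63 ± 0.29 (SD, n = 2). Its adjusted p was 0.863 in edgeR's quasi-likelihood test (Benjamini-Hochberg). This SD, as every SD over the 2 knockdown libraries, leaves out the variation of the control they share.

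ZNF195, a KRAB zinc finger gene on chromosome 11 at 3339261 to 3379222 (minus strand), had 100, 318 and 336 counts. Its knockdown libraries lay close together, at log2 changes of 1.56 and 1.51 with a mean of 1.53 ± 0.04 (SD, n = 2). Its adjusted p in edgeR was 0.902. ZNF594, on chromosome 17 at 5179536 to 5191883 (minus strand), encodes a protein of many fingers and had 105, 260 and 275 counts. Its log2 changes were 1.20 and 1.15, with a mean of 1.18 ± 0.04 (SD, n = 2), and its adjusted p in edgeR was 0.999. None of the 3 genes overlaps an exon of another gene in GENCODE release 29, which matters because the use of strand in the counting is not given in the sources used here.

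**Figure D1:**
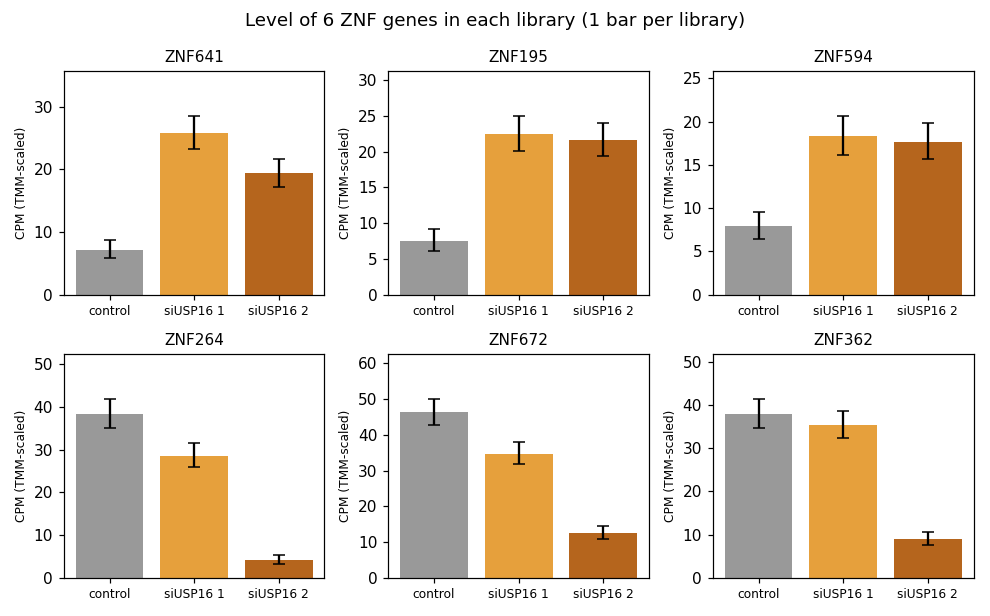
Level of 6 ZNF genes in each library in TMM-scaled CPM, 1 bar per library, with exact Poisson 95% intervals that cover counting error only. ZNF641, ZNF195 and ZNF594 (top) are at 7.14 to 7.89 in the control and at 17.7 or more in both knockdown libraries, while ZNF264, ZNF672 and ZNF362 (bottom) are lowest in knockdown library 2.

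These 3 genes were the only members at least 2-fold above the control in both knockdown libraries (1.9%), against 3.75% of all genes tested and 1.1% of comparably expressed genes. All 3 had between 95 and 105 counts in the control and entered the group through their knockdown counts. When 200 counts were asked of the control alone, 0 of 135 genes met the 2-fold rule. In the other direction, 0 members were 2-fold below the control in both, against 1.68% of all genes tested and 0.932% of comparably expressed genes.

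Among members named after their values were seen, ZNF133 (98, 347 and 212 counts) and ZNF229 (171, 492 and 359), both with a KRAB-like motif, were 2-fold or more above the control in library 1 and less so in library 2. Their log2 changes were 1.72 and 0.88 for ZNF133 and 1.42 and 0.84 for ZNF229. Exons of each overlap another gene, an antisense one for ZNF133 and one on the same strand for ZNF229. ZNF558, a KRAB gene with more counts in the control, had 468, 1090 and 1006, or 1.13 and 0.88. ZNF334 was the 1 member past 2-fold in library 2 and not in library 1, with 119, 192 and 323 counts and changes of 0.59 and 1.20.

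The control and the 2 knockdown libraries can be read side by side for every member, with the caution that both changes are taken against the same control. Above the control in both were 57 members (36.1%), against 29.2% of comparably expressed genes. When 200 counts were asked of the control alone, 37 of 135 were above it in both (27.4%), against 26.3% of 9077 genes chosen in the same way, and the median mean change was -0.03, against -0.10. Below it in both were 48 (30.4%), against 37.3%. The other 53 went opposite ways, 40 of them above the control in library 1 and below it in library 2, and 13 the reverse. By library, 97 members (61.4%) were above the control in library 1, against 46.5% of comparably expressed genes, and 70 (44.3%) in library 2, against 45.4%. The median log2 changes of the members were 0.18 and -0.08, those of comparably expressed genes -0.04 and -0.06.

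**Figure D2:**
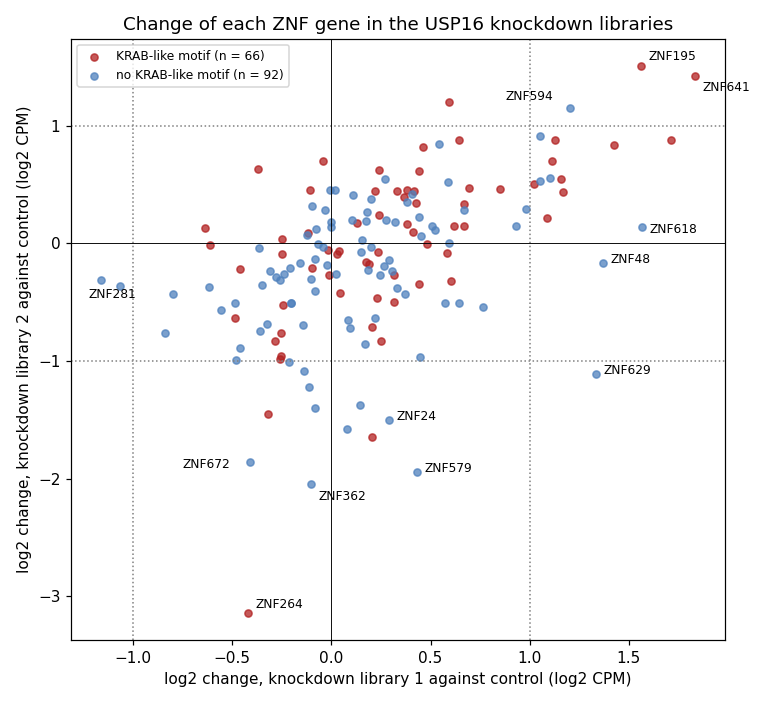
Log2 change of each of the 158 ZNF genes against the control in knockdown library 1 (horizontal) and library 2 (vertical), in log2 CPM, red for a KRAB-like motif (n = 66) and blue for none (n = 92). Dotted lines mark 2-fold. ZNF641, ZNF195 and ZNF594 are the points above it in both libraries. In library 2, 14 members (8.86%) lie 2-fold or more below the control, against 7.14% of comparably expressed genes and 8.97% of all genes tested. Both axes share the control, so a slope in the cloud is no result.

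The knockdown libraries differed from each other for this family. Library 1 was above library 2 for 111 members (70.3%), against 51.7% of comparably expressed genes, and the median difference, library 2 minus library 1, was -0.28 in log2 against -0.02. A gap of 2-fold or more was found for 21 members (13.3%, against 9.57%). In 20 of these library 1 was the higher, and ZNF707 (298, 245 and 542 counts) was the exception. The summed members took 0.630% of all counts in the control, 0.741% in library 1 and 0.599% in library 2. Past 2-fold against the control, library 1 had 17 members higher (10.8%, against 2.48% of comparably expressed genes and 7.05% of all genes tested). It had 2 lower (1.27%, against 3.52% and 5.55%). The 17 include members that entered the group through their knockdown counts. With at least 200 counts in the control, 4 of 49 members with a KRAB-like motif and 4 of 85 without were 2-fold higher in library 1 (8.16% and 4.71%). Of the 9077 genes chosen in the same way, 1.51% were. Library 2 had 4 higher (2.53%, against 3.62% and 9.94%) and 14 lower (8.86%, against 7.14% and 8.97%). The share lower in library 2 was thus near that of other genes.

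ZNF264, a KRAB zinc finger gene on chromosome 19 at 57191500 to 57222846 (plus strand), had the widest gap. It had 512, 406 and 66 counts, or 38.5 CPM in the control, 28.6 in library 1 and 4.24 in library 2. Both knockdown libraries were below the control, but by very unequal amounts, with log2 changes of -0.42 and -3.14. ZNF672 (616, 492 and 197 counts; -0.41 and -1.86) and ZNF362 (505, 500 and 141; -0.10 and -2.05) had the same order.

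In further members of wide gap the 2 knockdown libraries lay on opposite sides of the control. ZNF629, which encodes a protein of 19 fingers, had 707, 1900 and 381 counts (1.33 and -1.11 in log2), the only member past 2-fold in both directions. ZNF579 had 259, 372 and 77 counts (0.43 and -1.94), and ZNF777, with a KRAB-like motif, had 411, 504 and 152 (0.20 and -1.65). ZNF24, a SCAN domain factor, had 1157, 1505 and 476 counts (0.29 and -1.50), and ZNF106, a large RNA-binding protein, had 2870, 3376 and 1290 (0.14 and -1.38).

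ZNF768 had 1572, 1770 and 614 counts (0.08 and -1.58), and its exons overlap the same-strand gene AC002310.5. ZNF48 had 138, 383 and 143 counts (1.37 and -0.17) and overlaps SEPT1 on the other strand. In each of these genes from ZNF629 on, the knockdown libraries lay on either side of the control, so no common direction can be given for them. The reverse order of size was seen in ZNF281, a factor linked to epithelial-mesenchymal transition, at 1300, 617 and 1227 counts (-1.16 and -0.31), and in ZNF800 at 448, 227 and 407 (-1.06 and -0.36). These were the 2 members more than 2-fold below the control in library 1.

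Members with a KRAB-like motif lay higher than the others in both knockdown libraries. Their median log2 changes were 0.25 and 0.11, against 0.10 and -0.22 for the 92 members without the motif. Above the control in both were 30 of 66 and 27 of 92, and below it in both 14 of 66 and 34 of 92. Of the 14 members 2-fold below the control in library 2, 11 lacked the motif. The motif was called at 8 of 9 positions, a number relaxed from 9 after the changes had been seen because known KRAB genes were missed. With all 9 positions the 58 members had medians of 0.24 and 0.11 against 0.13 and -0.19 for the other 100. Among members with at least 200 counts in the control the medians were 0.21 and -0.06 for 49 KRAB-like members and 0.08 and -0.26 for 85 others. Of these, 16 of 49 (32.7%) and 21 of 85 (24.7%) were above the control in both, against 26.3% of genes chosen in the same way. The mean change there had medians of -0.01 and -0.04, closer than the 0.16 and -0.03 of all KRAB-like and other members.

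Members on chromosome 19 had medians near those of the rest. The 38 there had median log2 changes of 0.24 and -0.05 and the 120 elsewhere 0.17 and -0.09. The number of fingers went with the change only loosely: medians were 0.24 and 0.05 for the 42 members with 13 or more fingers, 0.23 and -0.18 for the 50 with 8 to 12, 0.04 and -0.18 for the 52 with 2 to 7, and -0.02 and 0.10 for the 14 with 0 to 1. KRAB-like members had a median of 10.5 fingers and the others 7, so the features were not independent. These splits are descriptions without a test.

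The GC content of the transcript moved with the change in library 2. Across members it ran from 34.7% to 71.1%, and its rank correlation with the log2 change was -0.23 in library 1 and -0.46 in library 2 (Spearman, across 158 genes that share the libraries and are not replicates). Across 9329 comparably expressed genes it was -0.07 and -0.25. Members were split into 3 classes of near equal size by GC. In the low class (53 genes, up to 43.1%) the median changes were 0.27 and 0.34, against 0.03 and 0.14 for the 2637 comparably expressed genes in the same GC range. In the high class (53 genes, above 53.4%) they were -0.04 and -0.38, against -0.06 and -0.20 for 3251 genes. The middle class (52 members) was at 0.24 and -0.09, against -0.07 and -0.08 for 3441 genes.

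KRAB-like members had a lower median GC (45.9% against 49.9%), so the KRAB and GC splits were also read together. In the low class the KRAB-like members were at 0.51 and 0.45 (24 genes) and the others at 0.17 and 0.19 (29). In the middle class they were at 0.23 and -0.08 (28) and 0.28 and -0.14 (24), and in the high class at 0.08 and -0.06 (14) and -0.07 and -0.40 (39). In these data the difference between KRAB-like and other members was present in the low and high classes and small or reversed in the middle one. The low class includes members that entered through their knockdown counts, such as KRAB-like ZNF195 (100 counts in the control) and ZNF334 (119) and, without the motif, ZNF594 (105). The classes were not read with 200 counts asked of the control. Without GC classes, that limit brought the medians of the mean change to -0.01 for KRAB-like members and -0.04 for others. The part of GC content in the gap between the knockdown libraries was not tested.

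**Figure D3:**
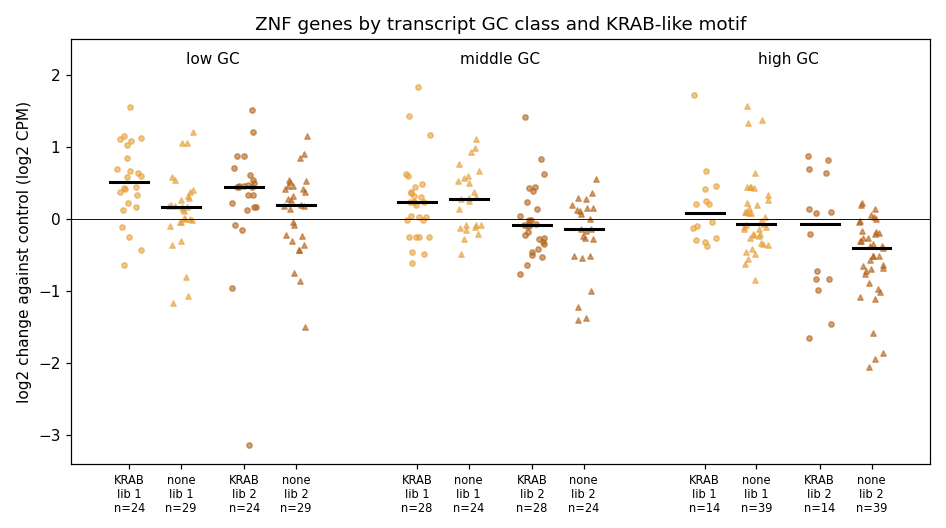
Log2 change against the control, in log2 CPM, of the 158 ZNF genes by class of transcript GC content, by KRAB-like motif (circles, KRAB; triangles, none) and by knockdown library (light, library 1; dark, library 2); each point is a gene and each bar a median. Low-GC members with the motif are highest, at medians of 0.51 and 0.45, and high-GC members without it are lowest in library 2, at -0.40. The 24 members with fewer than 200 counts in the control are included.

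Neighbouring members were described where at least 4 lay within 1 Mb of the next, a grouping made after the values were seen that gave 9 groups. On chromosome 16 from 30378106 to 31794869 (hg38), 8 members had medians of -0.03 and -0.91 and a median GC content of 61.1%. ZNF768, ZNF747, ZNF689, ZNF629, ZNF668 and ZNF646 lay between -1.58 and -0.51 in library 2, ZNF48 was at -0.17, and ZNF720, with the lowest GC content of the 8, was above it in both (144, 241 and 311 counts; 0.65 and 0.88). On chromosome 19 from 55576770 to 56160893, ZNF579, ZNF865, ZNF581, ZNF787 and ZNF444 had medians of 0.33 and -0.69 and a median GC of 68.6%. A group of 4 on the same chromosome from 36214602 to 36772825, with a median GC of 38.2%, was above the control at the median in both libraries, at 0.59 and 0.35. There ZNF260 (237, 525 and 522 counts; 1.05 and 0.91) and ZNF146 (1131, 2500 and 1909; 1.05 and 0.53), whose proteins consist almost wholly of fingers, were above the control and ZNF850 was below it (296, 264 and 177; -0.25 and -0.96).

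The 9 members on chromosome 7 from 149069643 to 149867479 did not share a direction. ZNF398 (640, 545 and 272 counts; -0.32 and -1.45) and ZNF777 were below the control in library 2, whereas ZNF783 (392, 576 and 810; 0.46 and 0.82) and ZNF862 (199, 206 and 379; -0.04 and 0.70) were above it. The medians of the 9 were 0.20 and -0.19, at a median GC of 57.95%. Among the remaining groups, 9 members on chromosome 19 from 57191500 to 58302805 had medians of 0.24 and -0.09 (median GC 45.7%). On the same chromosome, 6 members from 8806170 to 9675086 were at 0.07 and 0.38 (43.2%). A further 5 from 51571298 to 53580269 were at 0.32 and 0.22 (41.5%). ZNF205, ZNF213, ZNF200 and ZNF263 on chromosome 16 were at 0.37 and -0.03 (median GC 60.9%). ZNF251, ZNF7, ZNF250 and ZNF16 on chromosome 8 were at 0.36 and -0.04 (49.8%). The part of GC content in these group medians was not tested.

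By level per length, the highest members over the 3 libraries were ZNF593, ZNF768 and ZNF217, with means of 42.6, 39.3 and 38.5 CPM per kilobase of annotated exon. ZNF146 (30.9), ZNF384 (25.2), ZNF622 (23.7), ZNF207 (21.8), ZNF428, ZNF609 (16.9) and ZNF282 (16.5) followed. The order of the first 3 depended on the library: in the control they lay within 48.6 to 49.8, and in library 2 ZNF768 was at 16.5. By raw counts, which also reflect length, ZNF207 led with 4951, 4729 and 5148.

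**Figure D4:**
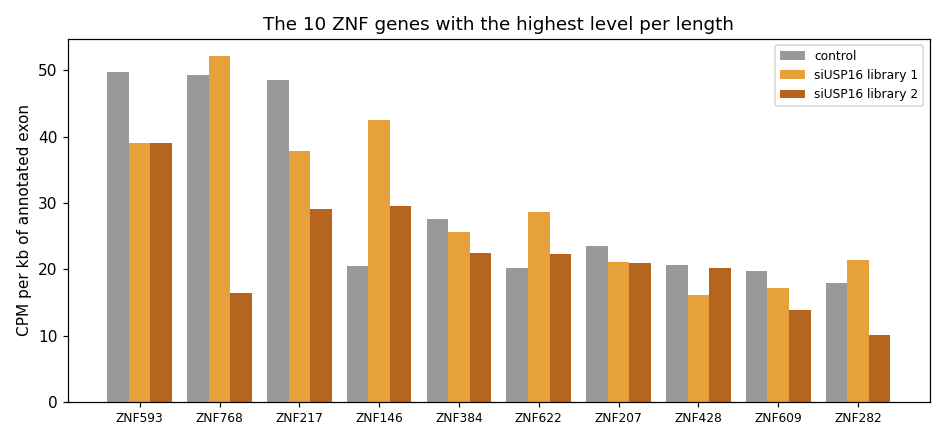
TMM-scaled CPM per kilobase of annotated exon for the 10 ZNF genes with the highest mean, 1 bar for each library and no error bars. ZNF768 is at 49.3 in the control and 16.5 in knockdown library 2, and ZNF146 is at 20.5 in the control and 42.5 in knockdown library 1.

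Of 11 members that act on RNA or the ribosome, 4 were above the control in both knockdown libraries (36.4%) and 5 below it in both (45.5%). Those shares were 29.2% and 37.3% of comparably expressed genes. The medians of the 11 were -0.00 and -0.17, and the widest gap among them was that of ZNF106 (0.14 and -1.38). ZNF207 (BuGZ), which binds microtubules and the checkpoint protein BUB3, was at -0.16 and -0.17. ZNF598, the ubiquitin ligase that recognises collided ribosomes, had 781, 564 and 614 counts (-0.56 and -0.57), and ZNF593, a ribosome assembly factor, had 510, 426 and 467 (-0.35 and -0.35). ZNF622, which acts on the large ribosomal subunit, had 455, 689 and 590 (0.51 and 0.15). ZNF326, part of a complex that couples elongation to splicing, had 672, 1077 and 1127 (0.59 and 0.52), and ZNF638, an RNA-binding protein, had 1721, 2433 and 2695 (0.41 and 0.42). In ZNF598, ZNF593, ZNF326 and ZNF638 the 2 knockdown libraries were near each other and differed from the control by less than 2-fold, and none passed the test. ZNF598, ZNF593, ZNF207 and ZNF638 overlap exons of other genes.

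Of the 15 listed partners of chromatin complexes, 13 were members, at medians of -0.08 and -0.09. Of these, 4 were above the control in both (30.8%) and 7 below it in both (53.8%), against 29.2% and 37.3% of comparably expressed genes. ZNF217, an oncogenic partner of the CoREST complex, had 3998, 3318 and 2791 counts (-0.36 and -0.74). ZNF687, ZNF592 and ZNF532 form one complex with ZMYND8 and had unlike values. ZNF687 had 771, 595 and 485 counts (-0.46 and -0.89), ZNF532 had 669, 929 and 1001 (0.38 and 0.36), and ZNF592 had 1000, 1585 and 822 (0.57 and -0.51). ZNF827, which recruits the NuRD complex to telomeres, had 884, 671 and 726 (-0.49 and -0.51). ZNF618, a partner of UHRF2, had 134, 426 and 173 (1.57 and 0.14), a value that rests on library 1.

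Of 12 listed sequence-specific regulators, 9 were members, at medians of -0.01 and -0.30. ZNF143, which binds promoters and chromatin loop anchors, had 300, 345 and 467 counts (0.11 and 0.41). ZNF384 had 1901, 1885 and 1805 (-0.10 and -0.30), with the 3 libraries within a narrow range. ZNF367 had 460, 463 and 202 (-0.08 and -1.40), again low in library 2 alone.

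Of 12 listed KRAB repressors 5 were members, at medians of 0.19 and 0.04. ZNF445, a regulator of imprinting, had 576, 445 and 578 counts (-0.46 and -0.22) and ZNF141 had 145, 251 and 236 (0.69 and 0.47). ZNF202, a repressor of lipid genes, had 308, 423 and 474 (0.37 and 0.40). ZNF175 had 199, 242 and 206 (0.19 and -0.17) and ZNF266 had 287, 257 and 345 (-0.25 and 0.04).

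The proteins through which KRAB zinc fingers repress are not members and were read as 22 measured genes. Their medians were 0.01 and 0.14, and no gene passed the threshold in edgeR. Above the control in both knockdown libraries were 10 (45.5%) and below it in both 7 (31.8%), against 29.2% and 37.3% of comparably expressed genes. TRIM28, the corepressor itself, had 5326, 4464 and 3635 counts (-0.34 and -0.78), and SETDB1 had 1222, 1430 and 1578 (0.14 and 0.14). The largest values were those of DAXX, an H3.3 chaperone, at 1290, 488 and 799 (-1.49 and -0.91), its partner ATRX at 921, 1568 and 2479 (0.68 and 1.20) and the deacetylase HDAC1 at 1581, 2841 and 3857 (0.75 and 1.06).

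Other zinc finger families at the same level were read beside the members. The 66 genes of the ZSCAN, ZKSCAN, ZBTB and ZFP families and ZNF genes with a letter in their symbol had medians of 0.15 and 0.09. Above the control in both were 29 (43.9%) and below it in both 11 (16.7%), against 29.2% and 37.3% of comparably expressed genes. The 21 ZNF genes with a letter were at 0.38 and 0.12 and the 27 ZBTB genes at 0.07 and 0.09. ZNF genes under the limit of 200 that passed the filter on low counts (259) had medians of 0.36 and -0.03. Of these 259, 13 were at least 2-fold higher in both knockdown libraries, where the share over all genes tested was 3.75%. In both libraries 2 were at least 2-fold lower, where that share was 1.68%. The differences between families were not tested.

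The limit of 200 counts ran through a dense part of the distribution. Just inside it lay ZNF747 (242, 211 and 158 counts, mean 203.7), ZNF710 (182, 216 and 217, mean 205.0) and ZNF549 (169, 213 and 234, mean 205.3). Just outside lay ZNF614 (178, 214 and 207, mean 199.7), ZNF117 (173, 180 and 241, mean 198.0) and ZNF184 (73, 267 and 253, mean 197.7). Over all members the mean count ran from 203.7 to 4943 with a median of 411.2.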

How the data were processed

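The 3 deposited tables give counts per gene as whole numbers, and no scaling by the authors is visible in them. HISAT2 2.0.4, StringTie 1.3.0 and hg38 are named in the submitters' processing notes without a role. How reads were counted, whether strand was used and which annotation served is not given in the sources used here. The second knockdown column carries another number in its header than in its label and was used as labelled.

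Genes were filtered with filterByExpr (17287 kept, every member among them) and scaled by TMM (factors 0.952, 1.02 and 1.03). The main test was edgeR 4.0.16 (R 4.3.3), quasi-likelihood, knockdown against control, with Benjamini-Hochberg adjustment over all genes and a threshold of 0.05. The single control left 1 residual degree of freedom and was taken to vary as the knockdown libraries do. Changes per library are log2 CPM with a prior count of 2. Fold rules have no test. Intervals cover counting error only.

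Positions, exon lengths, GC and overlaps came from GENCODE release 29 on hg38, to which all 158 members matched. Exons of 29 members overlap another gene on the same strand and of 57 on the opposite strand. Fingers were matches to C-x(2 to 4)-C-x(12)-H-x(3 to 5)-H in translated transcripts. KRAB-like means at least 8 of 9 positions of a KRAB motif in any translated transcript, which misses degenerate KRAB domains.

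The members and lists were chosen with earlier results of these data known, and GC classes, finger bins, neighbourhoods, promoter motifs and the printed sequences were chosen after changes were seen. Named members were the 10 highest per kilobase, those 2-fold in one direction in both libraries, the 10 with the widest gap between knockdown libraries, those at the limit of 200 counts and those of the role lists. Members outside this rule were named after their values were seen. Alternatives were DESeq2 1.42.0, median-ratio size factors in edgeR, omitting the filter, asking for a mean of 100 counts, a prior count of 10, other limits for membership and leaving out each knockdown library.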

Additional observations from a re-analysis of the deposited data

How the results depend on the processing

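No member was called by edgeR under any filter or size factor tried, or by DESeq2. The counts of members 2-fold higher (3), 2-fold lower (0) and above the control in both libraries (57) stayed within 1.5 times, and the median mean change stayed between 0.03 and 0.07, with the filter omitted, with 100 counts asked of each tested gene's mean, and with median-ratio size factors, DESeq2 or a prior count of 10. Leaving out 1 knockdown library, so that the rule reads a single library, gave 4 to 17 members 2-fold higher, 2 to 14 lower, 70 to 97 above the control and a median of -0.08 to 0.18. The 17 higher members, the 97 above the control and the positive median came without library 2, and the 14 lower members without library 1. With a mean of at least 100 counts there were 270 members, 7 of them 2-fold higher, 1 lower and 106 above the control in both. With at least 500 there were 57, with 0 higher and 16 above, and the median was -0.01. These counts change by construction with the number of members. Chosen after seeing the data, a limit of 200 counts in the control alone left 135 genes, with 0 higher, 37 above in both (27.4%, against 26.3% of genes so chosen) and a median of -0.03, and the 83 members without exon overlap held 3 higher and 30 above (36.1%). Among the 56 named members the sign of the mean change differed for 5 without library 1, for 9 without library 2, for 1 with 100 counts asked of tested genes and for 0 in the other settings. No paired analysis was possible because the single control carries no replicate number in its label. Depth limited the members least covered in the control: the 95 counts of ZNF641 allow 5.77 to 8.72 CPM from counting error alone.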
